A study of Homo sapiens with 30 samples.

Results

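The genes described here encode the proteins of the mitochondrial ribosome. They were taken as every protein-coding gene whose symbol is MRPL or MRPS followed by digits, and a probe counted as present when some group had it detected on each of its 3 arrays at a detection p below 0.01. Of the 95 such probes on the array 94 were kept, and they stood for 77 genes among the 11526 genes and unnamed probes that were tested. The 1 probe left out was a second probe for MRPL4, detected on 5 arrays and on at most 2 arrays of any group. The kept probe with the fewest detections was a second probe for MRPL55, detected on 4 arrays. Where a gene had several kept probes, the one with the highest mean stood for it, and each of the 77 genes was detected on all 30 arrays through that probe.

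Mitochondria carry their own ribosomes, which translate the few proteins encoded by mitochondrial DNA, all of them membrane subunits of the respiratory chain and of ATP synthase. The RNA of these ribosomes is transcribed inside the organelle, whereas every one of their proteins is encoded in the nucleus, made in the cytosol and imported. Some of the proteins have counterparts in bacterial ribosomes and the others were added during the evolution of mitochondria. By the subunit in which each protein sits, 51 of the genes belonged to the large subunit, MRPS18A and MRPS30 among them despite their symbols, and 26 to the small subunit. By descent, sorted here mostly by the number in the symbol, 46 genes were counted with a bacterial counterpart and 31 as mitochondria-specific. This sorting may not match the known bacterial counterpart of every protein.

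RNA was measured in HCT116, an established colon adenocarcinoma line, in p53KO cells, which lack p53, and in the isogenic wild-type (WT) cells. Both lines were left untreated or treated for 16 hours with 1, 10 or 100 nM actinomycin D, which binds DNA and blocks transcription, that of ribosomal RNA at the lowest doses, or with 4 µM nutlin-3, which releases p53 from MDM2. Each of the 10 groups held 3 Illumina bead arrays of total RNA. The labels do not say whether the arrays of a group came from separate cultures, or whether p53KO is a single clone, so the p-values measure the array-to-array spread alone, part or all of which may be technical.

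Arrays at 100 nM were dimmer than the others. Between 10101 and 10690 probes were detected on them, against 11338 to 12629 on the other arrays, and the median raw intensity over the member genes was 456 to 732, against 652 to 1644. The p53 target CDKN1A read 10.36 to 11.69 on 14 p53KO arrays and 11.49 to 14.18 on 14 WT arrays (log2 intensity), but the remaining arrays, the third nutlin array of each line, went against their labels, with 13.89 on the array labelled p53KO and 10.62 on the one labelled WT. PROM1 split the lines in the same way, at 9.07 on the third p53KO nutlin array and 4.36 on the third WT nutlin array, against 4.19 to 4.97 on the other p53KO arrays and 8.13 to 9.0 on the other WT arrays. The first untreated array of each line also stood apart. DDIT3 read 10.08 on the p53KO one and 10.48 on the WT one, against 7.31 to 8.55 on the other 4 untreated arrays. FOS read 11.11 and 9.66 there, against 7.29 to 8.28. CDKN1A read 11.7 against 10.4 and 10.5 in p53KO cells, and 13.9 against 12.3 and 12.2 in WT cells. The median over the members was 9.92 on the first p53KO untreated array and 9.97 on the first WT one, against 10.42 to 10.48 on the other 4 untreated arrays. In p53KO cells 59 of the 77 members, and in WT cells 62, were lowest on that array among the 3 untreated ones, against 47.2% and 43.1% of all tested features. Each count of members called in a comparison is therefore also given without these 4 arrays. In bulk RNA fewer cells and less RNA per cell cannot be told apart. Of 16 colon epithelial markers 8 were detected on every array and 4 on none, while of 12 markers of other cell types on the array 7 were detected on none. COL1A1, a collagen gene of fibroblasts, was detected on 27 arrays, PTPRC of leukocytes on 8, CD14 of monocytes on 7, PECAM1 of endothelium on 2 and DCN of fibroblasts on 1, and their part in the results was not tested.

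**Figure D1:**
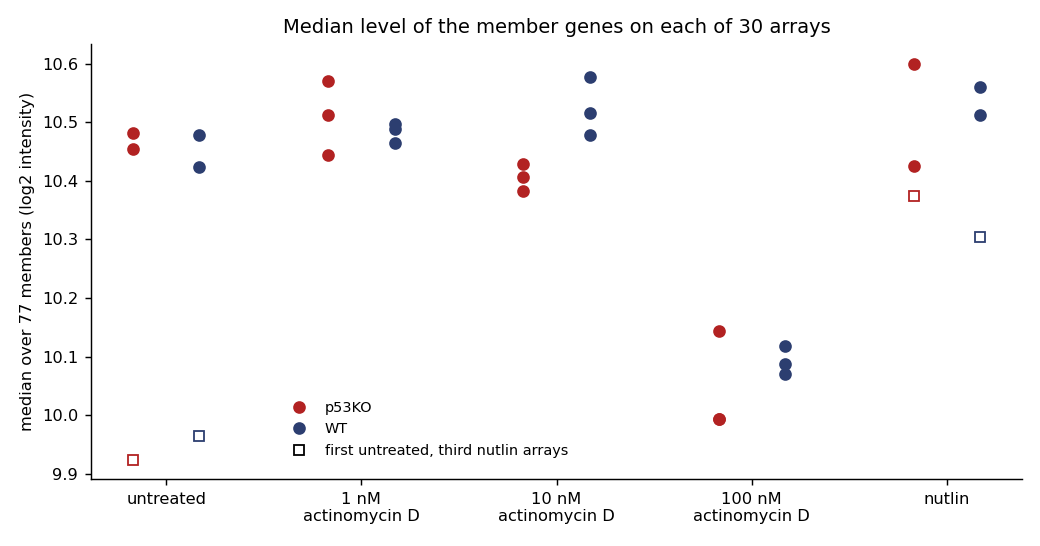
Median normalised log2 intensity of the 77 member genes (vertical axis) on each of the 30 arrays, by treatment (horizontal axis), with p53KO in red to the left of WT in blue. Open squares mark the first untreated arrays, at 9.92 and 9.97, and the third nutlin arrays. The 100 nM arrays lie between 9.99 and 10.14.

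At 100 nM actinomycin D the members, like the features as a whole, split into a group that rose and a group that fell. Almost the same members lay on each side in both lines. In p53KO cells 22 of the 77 members rose and 23 fell, beside 33.8% of all features that rose and 32.3% that fell. In WT cells 21 rose and 22 fell, beside 33.2% and 32.5% of all features. The share of members called was thus 58.4% in p53KO and 55.8% in WT cells, below the 66.1% and 65.7% of all features. The median change over the members was -0.03 in p53KO and -0.01 in WT cells (log2), beside 0.03 in p53KO and 0.04 in WT cells over all features, and single members ranged from -1.88 to 1.89 in p53KO and from -2.0 to 1.93 in WT cells. In both lines 19 members rose and 21 fell, none was called in opposite directions, and 29 were called in neither. The share of all features called alike in both lines is not given here. Their changes also went together between the lines, with a Pearson correlation of 0.956, against 0.987 over the members. Without the 4 arrays that stood apart, 20 rose and 30 fell in p53KO cells (35% and 34.2% of all features) and 19 rose and 33 fell in WT cells (34.6% and 34.1%), with medians of -0.10 in p53KO and -0.16 in WT cells. Of the members called with all arrays, 43 of 45 in p53KO and 41 of 43 in WT cells were called again in the same direction; MRPL24 and MRPL40 in p53KO and MRPL40 and MRPL51 in WT cells were not.

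**Figure D2:**
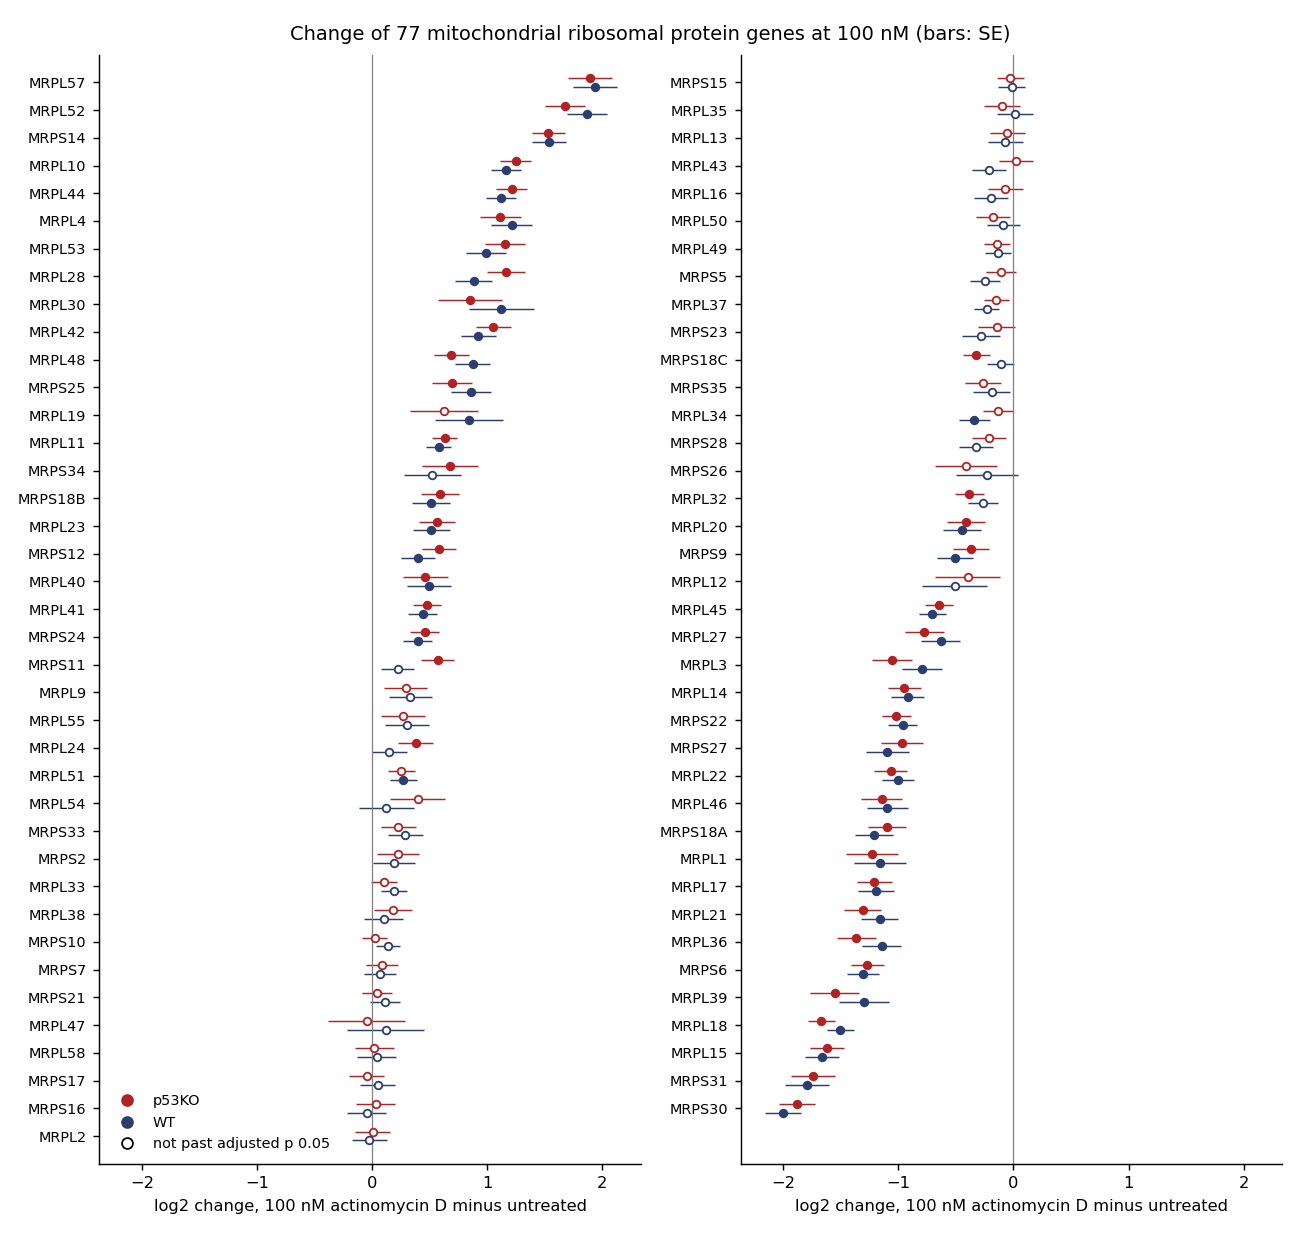
Log2 change at 100 nM actinomycin D relative to untreated cells for the 77 member genes, ordered by their mean change in both lines (horizontal axis: log2 change; bars: SE of the fit). p53KO (red) is drawn above WT (blue), and open circles did not pass an adjusted p of 0.05. MRPL57 stands at the top with 1.89 and 1.93, and MRPS30 at the bottom with -1.88 and -2.0.

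These directions are relative to the other genes on each array, because quantile scaling gives all arrays the same distribution. With background correction but no scaling between arrays, the median of all features changed by -0.69 in p53KO and -0.80 in WT cells at 100 nM, and with scaling to equal medians over all probes by -0.27 in p53KO and -0.28 in WT cells. With no scaling 3 members rose and 43 fell in p53KO cells, and 3 rose and 42 fell in WT cells. With median scaling 17 rose and 33 fell in p53KO cells, and 15 rose and 29 fell in WT cells. The share of all features called under each scaling is not given here. These counts therefore do not tell a shift of the members from one of the whole array. The 3 genes that rose with no scaling were MRPL44, MRPL52 and MRPL57 in both lines. On the raw scale, 16 members in p53KO and 14 members in WT cells had a higher mean intensity at 100 nM than in untreated cells.

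**Figure D3:**
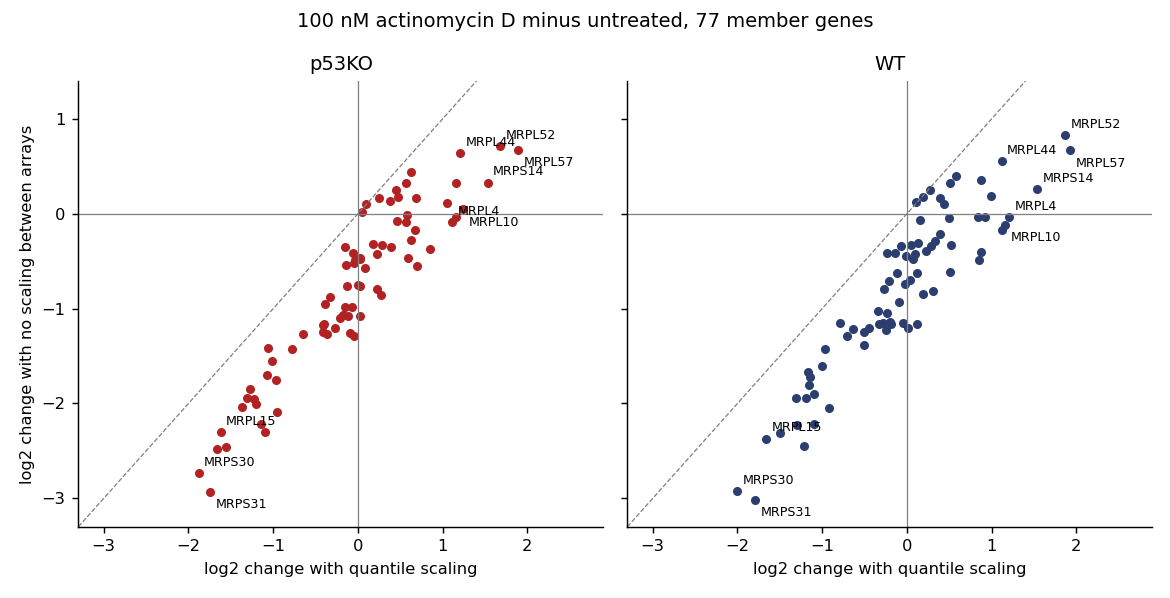
Log2 change at 100 nM relative to untreated cells for the 77 members with quantile scaling (horizontal axis) and with no scaling between arrays (vertical axis), p53KO on the left and WT on the right. The dashed line marks equal values. Nearly all points lie below it, MRPL44, MRPL52 and MRPL57 stay clearly above 0 on both scales, and MRPS30 and MRPS31 are far below 0 on both.

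Among the large-subunit genes that rose was MRPL52, which encodes a mitochondria-specific protein. It read 9.47, 9.73 and 9.43 on the p53KO arrays at 100 nM, against 7.76, 7.86 and 7.99 on the untreated p53KO arrays. WT values of MRPL52 were 9.39, 9.61 and 9.33 at 100 nM, against 7.06, 7.68 and 7.98 untreated. The groups did not overlap in either line, and the change was 1.68 ± 0.18 in p53KO and 1.87 ± 0.18 in WT cells (log2, SE; adjusted p = 8.65e-09 and 1.31e-09), which is 3.2-fold and 3.65-fold higher. Its mean raw intensity was 417 at 100 nM against 264 untreated in p53KO cells and 444 against 269 in WT cells.

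MRPL44, a protein of the ribonuclease III family placed near the exit of the nascent chain tunnel, read 10.67, 10.76 and 10.94 on the p53KO arrays at 100 nM, against 9.74, 9.52 and 9.47 on the untreated p53KO arrays. In WT cells MRPL44 read 10.55, 10.74 and 10.92 at 100 nM, against 9.56, 9.71 and 9.59 untreated. All treated arrays lay above all untreated ones, with a change of 1.21 ± 0.13 in p53KO and 1.12 ± 0.13 in WT cells (log2, SE; adjusted p = 1.63e-08 and 5.89e-08). The raw intensity was also higher, with means of 1200 at 100 nM against 784 untreated in p53KO cells and 1320 against 903 in WT cells.

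MRPL57 encodes a small mitochondria-specific protein of the large subunit and had the largest rise of the members in both lines with quantile scaling. With median scaling MRPL52 rose more, by 1.13 in p53KO and 1.35 in WT cells, against 1.10 and 1.19 for MRPL57 (log2), as it did with no scaling. It read 7.35, 7.17 and 7.37 on the p53KO arrays at 100 nM, against 4.89, 5.77 and 5.55 on the untreated p53KO arrays. In WT cells MRPL57 read 7.22, 7.06 and 7.54 at 100 nM, against 5.11, 5.40 and 5.52 untreated. The groups were well apart, and the change was 1.89 ± 0.19 in p53KO and 1.93 ± 0.19 in WT cells (log2, SE; adjusted p = 5.23e-09 and 3.53e-09). Its probe was dim, with raw means of 93.9 at 100 nM against 68.9 untreated in p53KO cells and 103 against 75.1 in WT cells.

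Other members that rose had raw intensities that differed little between the groups. MRPS14, which encodes a small-subunit protein with a bacterial counterpart, rose by 1.53 ± 0.14 in p53KO and 1.54 ± 0.14 in WT cells (log2, SE; adjusted p = 1.42e-09 and 1.31e-09), with raw means of 87.3 at 100 nM against 74.1 untreated in p53KO cells and 96.3 against 84.4 in WT cells. MRPL10, a protein of the stalk that recruits translation factors, rose by 1.25 ± 0.13 in p53KO and 1.16 ± 0.13 in WT cells (log2, SE; adjusted p = 1.2e-08 and 3.93e-08), with raw means of 79.5 at 100 nM against 77.1 untreated in p53KO cells and 83.7 against 87.4 in WT cells. MRPL4, a large-subunit protein with a bacterial counterpart, rose by 1.12 ± 0.18 in p53KO and 1.21 ± 0.18 in WT cells (log2, SE; adjusted p = 8.06e-06 and 2.66e-06), while its raw means were 176 at 100 nM against 184 untreated in p53KO cells and 225 against 229 in WT cells. With no scaling between arrays MRPL4 read -0.09 in p53KO and -0.04 in WT cells, MRPL10 read 0.05 in p53KO and -0.12 in WT cells, and MRPS14 read 0.33 in p53KO and 0.26 in WT cells, none of them past the test. With median scaling MRPS14 still rose, by 0.75 in p53KO and 0.78 in WT cells, as did MRPL10, by 0.47 and 0.41 (adjusted p from 0.0126 to 0.000127), while MRPL4 read 0.33 in p53KO and 0.49 in WT cells (adjusted p = 0.187 and 0.0517). Rises were also called for MRPL53, with 1.16 in p53KO and 0.99 in WT cells, for MRPL28, with 1.16 in p53KO and 0.88 in WT cells, for MRPL42, with 1.05 in p53KO and 0.92 in WT cells, and for MRPL30, with 0.85 in p53KO and 1.12 in WT cells.

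All 21 members that fell in both lines had a larger drop with no scaling. MRPS30, a mitochondria-specific protein of the large subunit, fell most among the members in both lines with quantile scaling. MRPS31 fell more than MRPS30 with median scaling and with no scaling. MRPS30 read 9.65, 9.11 and 9.55 on the p53KO arrays at 100 nM, against 11.53, 11.27 and 11.14 on the untreated p53KO arrays. The WT arrays read 9.04, 8.76 and 9.53 at 100 nM, against 11.04, 11.18 and 11.12 untreated. No treated array reached any untreated one, and the change was -1.88 ± 0.16 in p53KO and -2.0 ± 0.16 in WT cells (log2, SE; adjusted p = 1.38e-10 and 4.08e-11), that is 3.68-fold and 4.01-fold lower. With no scaling it was -2.73 in p53KO and -2.93 in WT cells. The raw means were 392 at 100 nM against 2390 untreated in p53KO cells and 341 against 2360 in WT cells.

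MRPS31, a mitochondria-specific protein of the small subunit, read 8.04, 7.25 and 7.41 on the p53KO arrays at 100 nM, against 9.0, 9.57 and 9.36 on the untreated p53KO arrays. WT values of MRPS31 were 8.01, 7.48 and 7.33 at 100 nM, against 9.14, 9.42 and 9.64 untreated. It changed by -1.74 ± 0.19 in p53KO and -1.79 ± 0.19 in WT cells (log2, SE; adjusted p = 2.61e-08 and 1.56e-08), without overlap between the groups. MRPL18, a bacterial-type protein of the central protuberance, read 9.82, 9.39 and 9.67 on the p53KO arrays at 100 nM, against 11.34, 11.26 and 11.29 on the untreated p53KO arrays. In WT cells it read 9.76, 9.46 and 9.60 at 100 nM, against 11.23, 10.89 and 11.20 untreated. It changed by -1.67 ± 0.12 in p53KO and -1.50 ± 0.12 in WT cells (log2, SE; adjusted p = 1.23e-11 and 7.96e-11), again with every treated array below every untreated one.

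Other falls at 100 nM, all past the test in both lines, were -1.62 in p53KO and -1.66 in WT cells for MRPL15, a bacterial-type large-subunit protein, and -1.55 in p53KO and -1.30 in WT cells for MRPL39, at the tunnel exit (log2). MRPL36 changed by -1.36 in p53KO and -1.14 in WT cells and MRPL21 by -1.31 in p53KO and -1.16 in WT cells. MRPS6, of the small subunit, changed by -1.27 in p53KO and -1.30 in WT cells and MRPL17, at the tunnel exit, by -1.21 in p53KO and -1.20 in WT cells. The other members that fell in both lines were MRPL1, MRPL3, MRPL14, MRPL20, MRPL22, MRPL27, MRPL45, MRPL46, MRPS9, MRPS18A, MRPS22 and MRPS27. MRPL21, MRPL27 and MRPL39 each had another kept probe that read above 0 in both lines, as given below. Their falls, here and in the counts by structural group, hold for the tested probe.

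**Figure D4:**
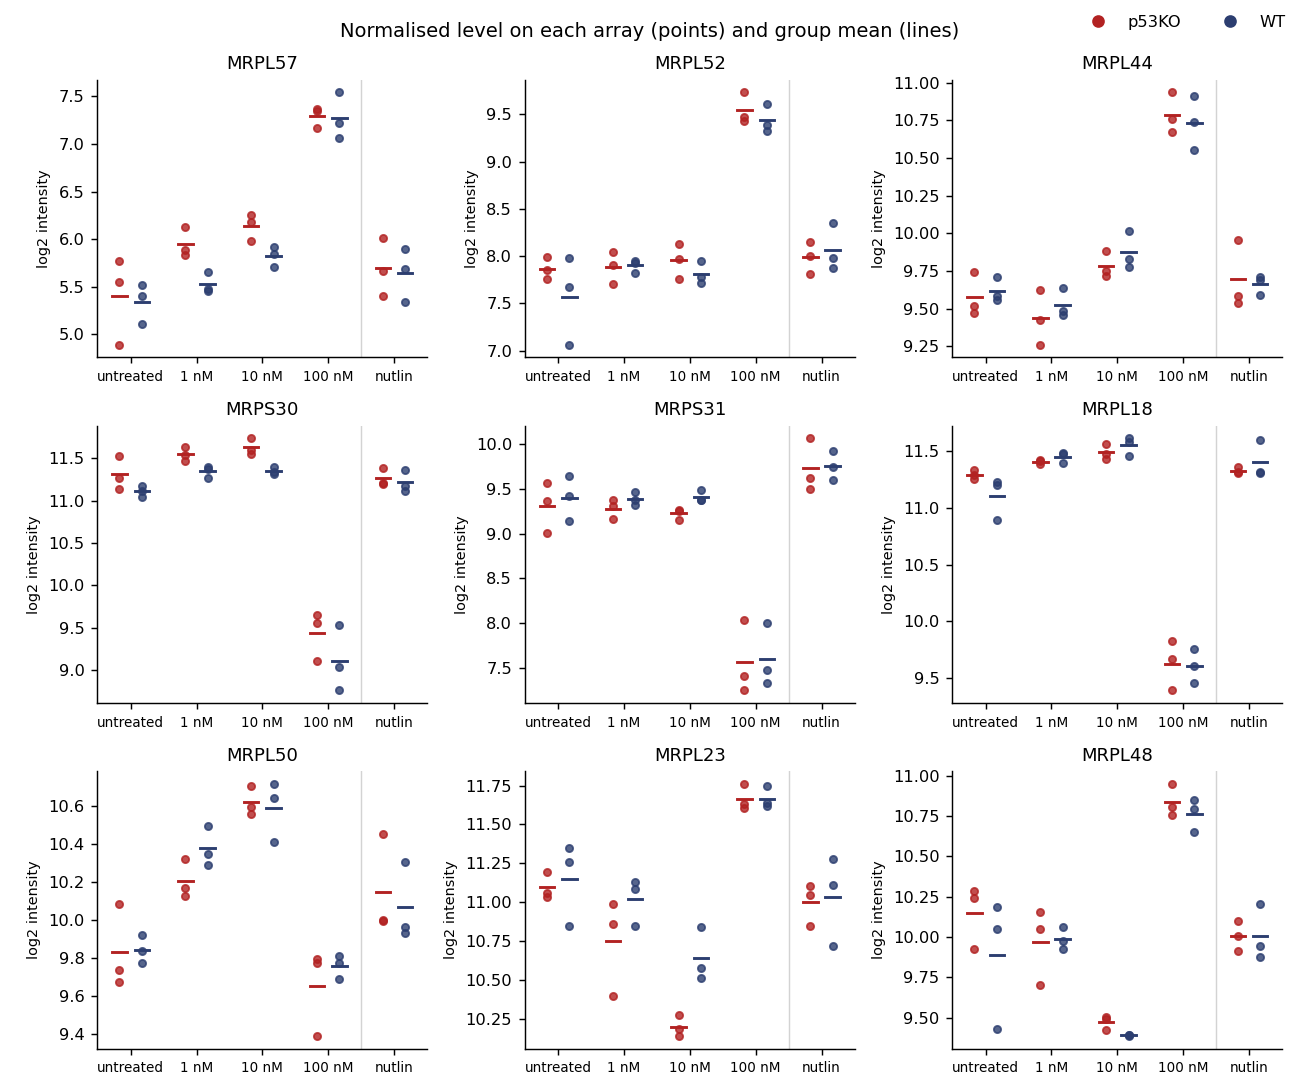
Normalised log2 intensity (vertical axis) of 9 member genes on every array, by actinomycin D dose and, right of the grey line, nutlin. Points are arrays and lines are group means, p53KO in red to the left of WT in blue. MRPL57, MRPL52 and MRPL44 are highest at 100 nM, MRPS30, MRPS31 and MRPL18 are lowest there, MRPL50 is highest at 10 nM, and MRPL23 and MRPL48 are lowest at 10 nM and highest at 100 nM.

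To show the DNA before the genes at either end of this order, the 250 bases before the annotated start of the 3 members with the highest and the 3 with the lowest mean change, among the 69 in the promoter table, are given from RefSeq (GRCh38.p14), 5′ to 3′ on the gene's strand. MRPL15, with a mean change below that of MRPL18, is not among the 69. Capitals mark CCGGAAG, the core bound by ETS factors such as GABP, or the palindromic NRF1 motif, on either strand; both factors are known regulators of nuclear genes for mitochondrial proteins.
MRPL57, chr13:21176408-21176657, strand +: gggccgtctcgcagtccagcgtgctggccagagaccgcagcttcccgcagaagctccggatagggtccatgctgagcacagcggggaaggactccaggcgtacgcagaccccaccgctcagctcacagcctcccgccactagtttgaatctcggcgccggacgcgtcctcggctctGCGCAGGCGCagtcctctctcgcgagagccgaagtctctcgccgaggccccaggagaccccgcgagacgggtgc
MRPL52, chr14:22829637-22829886, strand +: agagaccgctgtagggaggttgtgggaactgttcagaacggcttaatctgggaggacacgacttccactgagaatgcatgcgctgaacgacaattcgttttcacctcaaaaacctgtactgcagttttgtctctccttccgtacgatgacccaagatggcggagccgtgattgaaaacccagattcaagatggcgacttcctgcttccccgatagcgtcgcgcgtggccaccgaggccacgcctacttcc
MRPS14, chr1:175023426-175023675, strand -: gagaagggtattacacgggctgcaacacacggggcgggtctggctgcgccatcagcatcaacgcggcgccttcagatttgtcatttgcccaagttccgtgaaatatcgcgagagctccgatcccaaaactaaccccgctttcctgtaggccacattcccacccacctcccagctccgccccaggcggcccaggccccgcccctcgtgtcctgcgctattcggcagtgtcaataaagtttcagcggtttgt
MRPS30, chr5:44808697-44808946, strand +: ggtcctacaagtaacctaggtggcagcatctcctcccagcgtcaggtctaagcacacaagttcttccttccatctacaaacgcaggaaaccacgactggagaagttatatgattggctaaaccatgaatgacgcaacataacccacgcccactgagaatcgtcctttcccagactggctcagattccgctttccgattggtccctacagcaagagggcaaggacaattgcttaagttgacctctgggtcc
MRPS31, chr13:40771191-40771440, strand -: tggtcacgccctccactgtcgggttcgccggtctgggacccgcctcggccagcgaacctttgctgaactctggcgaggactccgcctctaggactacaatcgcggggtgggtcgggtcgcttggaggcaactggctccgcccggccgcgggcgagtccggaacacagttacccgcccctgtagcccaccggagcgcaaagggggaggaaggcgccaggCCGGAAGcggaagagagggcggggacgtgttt
MRPL18, chr6:159789562-159789811, strand +: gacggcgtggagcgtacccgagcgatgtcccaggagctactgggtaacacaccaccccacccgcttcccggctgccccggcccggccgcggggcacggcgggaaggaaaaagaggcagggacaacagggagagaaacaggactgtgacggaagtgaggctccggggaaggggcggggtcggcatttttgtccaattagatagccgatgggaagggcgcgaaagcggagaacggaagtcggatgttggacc
In these stretches MRPL57 held 1 NRF1 match and MRPS31 held 1 ETS match, and the other 4 held neither. Over the window of 250 bases before to 50 after the start, CCGGAAG was found in 29 of the 69 member promoters in the table (42.0%), against 19.3% of the 8946 promoters of tested genes and 10.7% of all 27305 promoters. The NRF1 motif was found in 11.6% of member promoters, against 12% for tested genes and 6.28% for all. GGGCGG, the SP1 core, was found in 60.9% of member promoters, against 70.3% for tested genes and 44.6% for all, and CACGTG, an E-box, in 8.7%, against 10.2% and 7.43%. All motifs were sought on both strands, and a CCGGAAG match can overlap a GGGCGG or other match. Among members that rose at 100 nM in both lines 7 of 17 held CCGGAAG and 2 of 17 held the NRF1 motif, and among those that fell 6 of 19 and 5 of 19 held them. A match is a string of letters and no measured site of binding.

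By place in the ribosome, 14 of the 51 large-subunit genes rose and 16 fell in both lines at 100 nM, and 5 of the 26 small-subunit genes rose and 5 fell. Of the 46 genes counted with a bacterial counterpart 9 rose and 14 fell in both lines. Of the 31 counted as mitochondria-specific 10 rose and 7 fell, and the sorting may misplace some genes. The proteins counted here at the tunnel exit, where the nascent chain leaves the ribosome, split as well. Of these 7 genes MRPL23 and MRPL44 rose and MRPL17, MRPL22, MRPL39 and MRPL45 fell in both lines. Of the 7 genes counted here with the central protuberance, MRPL40 and MRPL48 rose and MRPL18, MRPL27, MRPL46 and MRPS30 fell. MRPL58, called in neither line, was not among the 7 of the central protuberance. The lists for the tunnel exit and the central protuberance may not match the structure in full. In the stalk MRPL10 rose, MRPL1 changed by -1.23 in p53KO and -1.16 in WT cells, and MRPL12, which also binds the mitochondrial RNA polymerase, read -0.40 in p53KO and -0.51 in WT cells (adjusted p = 0.221 and 0.117). Without the arrays that stood apart, MRPL12 fell at 100 nM in both lines. It changed by -0.708 in p53KO and -0.841 in WT cells (log2; adjusted p = 0.00782 and 0.00223). No structural group moved as a whole in one direction, but all features split at 100 nM too. In p53KO cells 33.8% of all features rose and 32.3% fell, and in WT cells 33.2% rose and 32.5% fell. The share of all features called alike in both lines is not given, so these counts do not set any structural group apart.

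The 3 genes named MRPS18, whose products are related to one bacterial protein, differed from each other. MRPS18A, in the large subunit, read 8.17, 7.52 and 8.04 on the p53KO arrays at 100 nM, against 9.07, 8.97 and 8.98 on the untreated p53KO arrays. In WT cells it read 8.08, 7.88 and 8.11 at 100 nM, against 9.29, 9.27 and 9.13 untreated. Its groups did not overlap, and the change was -1.10 ± 0.16 in p53KO and -1.21 ± 0.16 in WT cells (log2, SE; adjusted p = 2.33e-06 and 5.32e-07). MRPS18B, a small-subunit protein, read 9.10, 9.18 and 9.12 on the p53KO arrays at 100 nM, against 8.80, 8.46 and 8.38 on the untreated p53KO arrays. The WT arrays read 8.91, 8.92 and 9.09 at 100 nM, against 8.72, 8.45 and 8.21 untreated. It rose by 0.59 ± 0.17 in p53KO and 0.51 ± 0.17 in WT cells (log2, SE; adjusted p = 0.00304 and 0.00881). That direction flipped to -0.05 in p53KO and -0.09 in WT cells with median scaling, and to -0.47 in p53KO and -0.61 in WT cells with no scaling. MRPS18C, also a small-subunit protein, changed by -0.32 ± 0.12 in p53KO cells (adjusted p = 0.0166) and read -0.11 ± 0.12 in WT cells (adjusted p = 0.404).

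MRPL41, MRPS12 and MRPL58, which have known roles outside or at the core of translation, were also followed. MRPL41, which is known to bind BCL2, rose by 0.48 ± 0.12 in p53KO and 0.44 ± 0.12 in WT cells (log2, SE; adjusted p = 0.00158 and 0.0033) at 100 nM. MRPS12, the counterpart of the bacterial decoding-site protein to which streptomycin resistance maps, rose by 0.58 ± 0.15 in p53KO and 0.40 ± 0.15 in WT cells (log2, SE; adjusted p = 0.00119 and 0.021), and read -0.01 in p53KO and -0.21 in WT cells with no scaling. MRPL58, a peptidyl-tRNA hydrolase that became part of the large subunit, read 0.02 ± 0.17 in p53KO and 0.04 ± 0.17 in WT cells (log2, SE; adjusted p = 0.924 and 0.847). With no scaling MRPL58 read -0.76 in p53KO and -0.70 in WT cells (adjusted p = 0.012 and 0.0194).

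10 nM actinomycin D changed fewer members and by smaller amounts. In p53KO cells 11 rose and 7 fell, beside 10.4% of all features that rose and 11.2% that fell, and in WT cells 14 rose and 6 fell, beside 15.6% and 15.4%. In either direction 21.6% of all features were called in p53KO and 30.9% in WT cells. In the cells without p53 14.3% of the members rose and 9.09% fell, and in WT cells 18.2% rose and 7.79% fell. The median change was 0.15 in p53KO and 0.21 in WT cells, beside 0.04 and 0.03 over all features. Without the 4 arrays that stood apart 11 rose and 7 fell in p53KO cells (14.1% and 14.4% of all features) and 11 rose and 9 fell in WT cells (20.2% and 19.6%), with medians of 0.07 and 0.04. Of those called with all arrays, 14 of 18 in p53KO and 15 of 20 in WT cells were called again, and among the rises common to both lines MRPS14 was lost in each, MRPL36 in p53KO, and MRPL16, MRPL41 and MRPL53 in WT cells; the fall of MRPL22 was lost in p53KO cells. The split moved with the scaling, to 25 that rose and 1 that fell with median scaling and 31 and 0 with no scaling in p53KO cells, and to 11 and 0 and to 6 and 0 in WT cells. The shares of all features called under these scalings are not given, so the counts do not set the members apart.

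**Figure D5:**
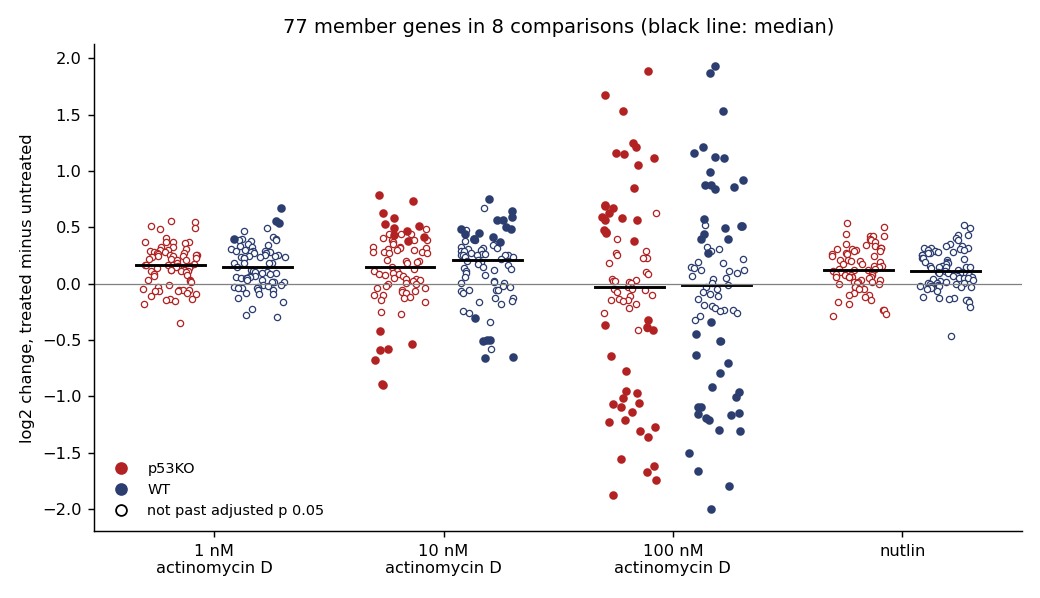
Log2 change of each of the 77 members relative to untreated cells (vertical axis) in the 8 comparisons of a treatment with untreated cells (horizontal axis), p53KO in red to the left of WT in blue. Filled points passed an adjusted p of 0.05 and black lines are medians. The points spread from -2.0 to 1.93 at 100 nM, and no point is filled for nutlin.

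MRPL16, MRPL36, MRPL41, MRPL50, MRPL53, MRPS14 and MRPS18C rose at 10 nM in both lines, and MRPL22, MRPL23, MRPL48, MRPS27 and MRPS28 fell in both. MRPL50, a mitochondria-specific protein of the large subunit, read 10.60, 10.56 and 10.71 on the p53KO arrays at 10 nM, against 10.08, 9.74 and 9.67 on the untreated p53KO arrays. In WT cells it read 10.72, 10.41 and 10.65 at 10 nM, against 9.77, 9.92 and 9.84 untreated. The groups did not overlap, and this was the largest rise at 10 nM among the members in each line, 0.79 ± 0.15 in p53KO and 0.75 ± 0.15 in WT cells (log2, SE; adjusted p = 0.000356 and 0.00038). MRPS27, an RNA-binding protein of the small subunit, fell, with -0.58 ± 0.18 in p53KO and -0.66 ± 0.18 in WT cells (log2, SE; adjusted p = 0.0255 and 0.00768), and MRPL22, which lines the tunnel, fell, with -0.42 ± 0.14 in p53KO and -0.65 ± 0.14 in WT cells (log2, SE; adjusted p = 0.0356 and 0.00106).

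Several members turned between 10 and 100 nM. Relative to 10 nM, 15 members rose and 27 fell at 100 nM in p53KO cells (32.3% and 32.5% of all features), and 17 rose and 30 fell in WT cells (32% and 32.6% of all features), with member medians of -0.23 and -0.15. In either direction 64.8% of all features were called in p53KO and 64.6% in WT cells. Leaving out the 4 arrays that stood apart, none of which is in these groups, changed the shared estimate of the spread and gave 19 that rose and 36 that fell in p53KO cells (35.8% and 36% of all features) and 18 and 36 in WT cells (35.5% and 36%). With median scaling 8 rose and 43 fell in p53KO cells and 12 rose and 37 fell in WT cells, and with no scaling 1 and 61 in p53KO and 2 and 52 in WT cells. Beside these counts too the share of all features is not given, so they describe the members alone. The 10 nM arrays also served in the comparison of 10 nM with untreated cells, so both share their error. MRPL23, a protein of the tunnel exit, read 11.10 ± 0.09 untreated, 10.75 ± 0.31 at 1 nM, 10.20 ± 0.07 at 10 nM and 11.67 ± 0.08 at 100 nM in p53KO cells (SD, n = 3 each). In WT cells MRPL23 read 11.15 ± 0.27 untreated, 11.02 ± 0.15 at 1 nM, 10.64 ± 0.17 at 10 nM and 11.67 ± 0.07 at 100 nM. It fell at 10 nM, with -0.90 ± 0.16 in p53KO and -0.51 ± 0.16 in WT cells (log2, SE; adjusted p = 0.000209 and 0.0156), and rose between 10 and 100 nM, with 1.47 ± 0.16 in p53KO and 1.02 ± 0.16 in WT cells (log2, SE; adjusted p = 1.62e-08 and 3.94e-06).

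MRPL48, in the central protuberance, was also lowest at 10 nM and highest at 100 nM. In p53KO cells it read 10.15 ± 0.20 untreated, 9.97 ± 0.24 at 1 nM, 9.47 ± 0.04 at 10 nM and 10.84 ± 0.10 at 100 nM (SD, n = 3 each), and in WT cells 9.89 ± 0.40, 9.99 ± 0.07, 9.39 ± 0.01 and 10.76 ± 0.10 in that order. The rise between 10 and 100 nM was 1.36 ± 0.15 in p53KO and 1.37 ± 0.15 in WT cells (log2, SE; adjusted p = 3.46e-08 and 2.95e-08). With no scaling the rise of MRPL23 between 10 and 100 nM was 0.73 in p53KO and 0.64 in WT cells, and that of MRPL48 was 0.69 in WT cells (adjusted p = 0.0223, 0.0452 and 0.0354), while MRPL48 read 0.39 in p53KO cells (adjusted p = 0.217). The falls at 10 nM rested on the scaling. With median scaling MRPL23 read -0.61 in p53KO and -0.40 in WT cells and MRPL48 read -0.44 in p53KO and -0.41 in WT cells (log2; adjusted p = 0.046, 0.192, 0.15 and 0.172), so that the fall of MRPL23 in p53KO cells alone passed the test. With no scaling MRPL23 read -0.40 in p53KO and -0.32 in WT cells and MRPL48 read -0.23 in p53KO and -0.33 in WT cells (adjusted p = 0.278, 0.447, 0.559 and 0.435). With quantile scaling MRPL24 in p53KO cells also fell at 10 nM and rose between 10 and 100 nM. The opposite course, a rise at 10 nM and a fall between 10 and 100 nM, was called in both lines for MRPL16, MRPL36, MRPL50 and MRPS18C. MRPL36, a small bacterial-type protein, rose at 10 nM by 0.50 ± 0.17 in p53KO and 0.59 ± 0.17 in WT cells (log2, SE; adjusted p = 0.0374 and 0.00924) and fell between 10 and 100 nM, with -1.86 ± 0.17 in p53KO and -1.74 ± 0.17 in WT cells (log2, SE; adjusted p = 1.02e-09 and 3.05e-09).

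MRPL12 read 9.36, 9.54 and 9.42 on the p53KO arrays at 10 nM, against 9.71, 10.63 and 10.65 on the untreated p53KO arrays. WT values of MRPL12 were 9.82, 10.08 and 9.81 at 10 nM, against 9.82, 10.86 and 10.77 untreated. The change was -0.89 ± 0.28 in p53KO and -0.58 ± 0.28 in WT cells (log2, SE; adjusted p = 0.0256 and 0.121), past the test in p53KO cells. The first untreated array of each line was the lowest of its 3. Without the arrays that stood apart, MRPL12 fell at 10 nM in both lines. The change was then -1.2 in p53KO and -0.915 in WT cells (log2; adjusted p = 0.000439 and 0.00262).

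At 1 nM actinomycin D no member was called in p53KO cells, where 0.807% of all features were, and 11 members had an unadjusted p under 0.05. In WT cells 4 members rose and none fell, beside 4.06% of all features that rose and 5.25% that fell. In either direction 9.31% of all features were called. These 4 were MRPL39 (0.67 ± 0.21), MRPS23 (0.56 ± 0.16), MRPL50 (0.54 ± 0.15) and MRPS18C (0.39 ± 0.12, log2, SE; adjusted p = 0.0478, 0.0296, 0.0207 and 0.032). The same 4 read 0.18, 0.40, 0.37 and 0.33 in p53KO cells, none past the test. Without the 4 arrays that stood apart, MRPL50 rose in p53KO cells by 0.50 (adjusted p = 0.0271; 1.29% of all features rose and 2.21% fell), and in WT cells MRPL18, MRPL50, MRPS18C and MRPS23 rose and MRPS34 fell (8.04% and 9.29%). The WT count rested on single arrays, with 0 calls without the first untreated array or without the second 1 nM array, 1 without the third 1 nM array, and 2 without the first 1 nM array or without the third untreated array. All 1 nM arrays lay on 1 slide with no other arrays, so the slide and this dose cannot be told apart.

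In the main fit no member passed the test after nutlin in either line. Some alternatives without a block for slide gave 1 call in WT cells, as listed in the last section. In p53KO cells 0.0521% of all features were called and in WT cells 0.234%, and 11 members in p53KO and 10 members in WT cells had an unadjusted p under 0.05. Member changes ranged from -0.29 to 0.54 in p53KO and from -0.46 to 0.52 in WT cells, with medians of 0.12 and 0.11. The 95% interval lay within 1 log2 unit on either side of 0 for 75 of the 77 members in p53KO and 76 in WT cells. Without the first untreated array and the third nutlin array of each line no member was called in either line. Slide changed this count. With slide as a fixed block 27 members rose and 0 fell in p53KO cells (9.82% and 9.39% of all features) and 27 rose and 1 fell in WT cells (10.6% and 9.14%), and with slide as a random block 13 rose and 0 fell in p53KO cells (3.97% and 4.29%) and 13 rose and 1 fell in WT cells (4.18% and 3.66%). On the slide that held both groups 65 of the 77 members in p53KO and 68 in WT cells read higher after nutlin, but the only untreated array of each line there was the first one, on which most members were low.

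In untreated cells no member differed between p53KO and WT cells, where 1.28% of all features did, and 1 member had an unadjusted p under 0.05. This was MRPS11, a small-subunit protein, which read 9.79, 10.03 and 9.86 in p53KO cells against 10.11, 10.32 and 10.30 in WT cells, a difference of -0.35 ± 0.14 (log2, SE; adjusted p = 0.314). The interval lay within 1 log2 unit of 0 for all 77 members and within 0.5 for 52. Without the 4 arrays that stood apart, MRPL54 differed, with -0.41 as p53KO minus WT (adjusted p = 0.0295), beside 1.39% of all features that were higher and 2.09% that were lower in p53KO cells.

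The responses themselves were compared between the lines as p53KO minus WT. No member differed in its response to 1, 10 or 100 nM actinomycin D or to nutlin, where 0%, 0.425%, 0.234% and 0% of all features did, and 2, 2, 0 and 0 members had an unadjusted p under 0.05. Without the 4 arrays that stood apart the counts of members were also 0, but with the replicate number as a block as well MRPL39 differed at 10 nM, with -0.65 (adjusted p = 0.0353). At 100 nM the differences ranged from -0.27 to 0.35, with a median of -0.01, and the 95% interval lay within 1 log2 unit of 0 for 74 of the 77 members and within 0.5 for 25. With 3 arrays a group these intervals leave room for differences between the lines that were not called. The treated and untreated arrays of one line are separate from those of the other, and across the 77 members the changes at 100 nM had a Pearson correlation of 0.987 between the lines (0.956 over all features), and 0.849 at 10 nM (0.745 over all features). Genes are not independent replicates, and the same-numbered arrays of both lines shared deviations, so these correlations are descriptions.

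Genes that work with the mitochondrial ribosome were counted from lists chosen with earlier results of these data known. Of 2 measured mitochondrial ribosome proteins that carry other symbols, both rose at 100 nM, GADD45GIP1 by 1.22 in p53KO and 1.25 in WT cells and CHCHD1 by 0.65 in p53KO and 0.80 in WT cells. Neither passed with no scaling. Of 29 assembly factors, which modify and fold the ribosomal RNA and join the subunits, 6 rose and 16 fell in p53KO cells and 6 rose and 14 fell in WT cells, with medians of -0.46 and -0.30. The assembly factor MALSU1 changed by -2.07 in p53KO and -2.08 in WT cells, and the pseudouridine synthase RPUSD4 by -1.92 in p53KO and -1.96 in WT cells. Of 13 translation factors 4 rose and 3 fell in p53KO cells and 5 rose and 3 fell in WT cells, and the initiation factor MTIF2 changed by -1.52 in p53KO and -1.4 in WT cells. Of 18 mitochondrial tRNA synthetases and amidotransferase subunits 7 rose and 9 fell in p53KO cells and 6 rose and 7 fell in WT cells, and of 8 genes of mitochondrial transcription and replication 1 rose and 2 fell in each line. With no scaling 0 assembly factors rose and 19 fell in p53KO cells and 1 rose and 21 fell in WT cells. With no scaling 1 translation factor rose and 9 fell in p53KO cells and 0 rose and 9 fell in WT cells, and of the tRNA synthetases and amidotransferase subunits 0 rose in either line while 10 fell in p53KO and 11 fell in WT cells.

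Of 8 measured transcription factors and coactivators known for these genes, at 100 nM 1 was called higher and 6 lower in p53KO cells, and 2 higher and 6 lower in WT cells, with medians of -1.12 and -1.20. GABPB1, the partner subunit of the ETS factor GABPA, changed by -2.30 in p53KO and -2.15 in WT cells, and PPRC1, a coactivator, by -1.98 in p53KO and -2.13 in WT cells. SP1 changed by -1.63 in p53KO and -1.39 in WT cells and NRF1 by -1.06 in p53KO and -1.21 in WT cells. With no scaling 7 of the 8 fell and 0 rose in each line. Among nuclear-encoded respiratory chain subunits 42 of 73 rose and 5 fell in p53KO cells and 43 rose and 5 fell in WT cells, with medians of 0.31 and 0.29. Cytosolic ribosomal protein genes were mostly not called, as 11 of 61 rose and 4 fell in p53KO cells and 14 rose and 4 fell in WT cells. With median scaling 55 of the 73 respiratory subunits and 49 of the 61 cytosolic ribosomal protein genes rose in p53KO cells and 58 and 52 in WT cells. With no scaling 19 respiratory subunits rose and 8 fell in p53KO cells and 16 rose and 7 fell in WT cells, and 6 cytosolic ribosomal protein genes rose in each line while 4 fell in p53KO and 5 fell in WT cells. No test was made between these lists and the members.

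13 of the 77 genes had more than 1 kept probe, and 17 further probes were fitted with every kept probe. At 100 nM 13 of these 17 had the sign of the tested probe in p53KO cells and 12 in WT cells, while 5 lay more than 1 log2 unit from it in each line. MRPL22 fell by both of its probes, and MRPL11 rose by both. For MRPL43 the tested probe read 0.02 in p53KO and -0.21 in WT cells, but a second probe read 3.31 in p53KO and 3.65 in WT cells and another one 1.57 in p53KO and 1.17 in WT cells. For MRPL27 the tested probe read -0.77 in p53KO and -0.63 in WT cells, while one other probe read 2.38 in p53KO and 2.81 in WT cells and another -0.93 in p53KO and -1.25 in WT cells. For MRPL39 the tested probe read -1.55 in p53KO and -1.30 in WT cells and the other 0.95 in p53KO and 0.87 in WT cells. For MRPL21 the tested probe read -1.31 in p53KO and -1.16 in WT cells and the other 0.09 in p53KO and 0.36 in WT cells. The second MRPL39 probe, the MRPL43 probe that read 1.57 in p53KO cells and the MRPL27 probe that read -0.93 there were detected on 25, 26 and 24 of the 30 arrays, so their values lie partly at background. Which transcripts these probes match was not tested, so the direction given for these 4 genes holds for the tested probe.

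Untreated and nutlin arrays shared no slide with arrays of any actinomycin D dose, so slide and dose cannot be told apart by a fixed block, and the 10 and 100 nM arrays lay on 2 slides. With slide as a random block (correlation 0.501) 25 members rose and 20 fell at 100 nM in p53KO cells and 22 rose and 19 fell in WT cells. Between 100 and 10 nM in WT cells both slides held both doses, and all 47 called members had the sign of the fit within each slide, with member medians of -0.20 and -0.13. The 47 were called from these same arrays, so their shared sign was largely fixed beforehand and is no separate test of slide. MRPS30, for one, differed by -2.03 on one of these slides and by -2.60 on the other, and MRPL48 by 1.36 and 1.4. With slide as a fixed block 18 members rose and 29 fell in p53KO cells and 18 rose and 35 fell in WT cells. The shares of all features called with slide as a random or fixed block are not given beside these counts. All p53KO arrays of 100 nM lay on 1 of the 2 slides and all of 10 nM on the other.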

How the data were processed

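RNA of 30 samples in 10 groups was measured on Illumina bead arrays. Per the file headers, the authors deposited an average bead signal per probe and array as a linear intensity, with a detection p-value; BeadStudio is named in the submitters' processing notes. A second deposited table holds processed intensities, which served as an alternative. 26 columns of other samples were not used.

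With limma 3.58.1 in R 4.3.3, raw intensities were background-corrected (normexp with negative controls inferred from detection p-values, offset 16), quantile-normalised and put on the log2 scale. Of 22177 probes 12896 were kept (detection p under 0.01 on 3 arrays of a group), and the probe with the highest mean stood for each gene, leaving 11526 features. 21101 probes had 1 symbol, 1076 had none and 0 had several. Symbols came from the platform annotation, updated by gene ID to RefSeq. One fit gave each group a mean (20 residual degrees of freedom), and 15 contrasts were adjusted over all features by Benjamini-Hochberg. Calls used an adjusted p under 0.05. The script was tested on simulated data. The number of arrays limits the precision.

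The members, gene lists and tests were chosen with earlier results of these data known. Named members were, in each comparison, up to 8 called with the largest rise and up to 8 with the largest fall whose groups did not overlap, together with MRPL10, MRPL12, MRPL41, MRPL58, MRPS12, MRPS18A to MRPS18C and MRPS30, members with several probes, and up to 4 genes of each list. MRPS36 is annotated under another symbol and was not a member. A few other members are named from counts of 5 or fewer or from calls in both lines, after their values were seen.

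Same-numbered p53KO and WT arrays deviated together in every pair of 4 of the 5 treatments (lowest correlation 0.233), but not for nutlin (0.012, -0.438 and -0.295). Promoters were matched by gene ID to RefSeq, GRCh38.p14, for 69 of 77 members.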

Additional observations from a re-analysis of the deposited data

Results flagged for a closer look

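MRPL17, a large-subunit protein at the tunnel exit, read higher than untreated on all p53KO arrays and lower on all WT arrays at 10 nM actinomycin D, although neither change passed the test. It read 11.07, 11.08 and 11.23 on the p53KO arrays at 10 nM, against 10.59, 11.003 and 10.99 on the untreated p53KO arrays. In WT cells MRPL17 read 10.93, 10.93 and 10.95 at 10 nM, against 11.13, 10.99 and 11.15 untreated. The change was 0.27 ± 0.15 in p53KO and -0.15 ± 0.15 in WT cells (log2, SE; adjusted p = 0.228 and 0.491 by limma). The difference of the responses, p53KO minus WT, was 0.42 ± 0.22 (log2, SE; adjusted p = 0.602 by limma), which missed the threshold, and 0.27 ± 0.23 without the 4 arrays that stood apart (adjusted p = 0.769).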

How the results depend on the processing

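The counts at 100 nM, relative to untreated cells and to 10 nM, stayed within 1.5 times under all alternatives run, with splits that moved as given above. With any 1 array left out they ran from 39 to 45 in p53KO and 40 to 44 in WT cells relative to untreated cells, and from 41 to 45 and 43 to 48 relative to 10 nM. At 10 nM they ran from 9 (without the first untreated array; 10 and 11 without the second or first 10 nM array) to 15 in p53KO and from 13 (without the first or second 10 nM array) to 18 in WT cells. At 1 nM they ran from 0 to 4 in WT cells and stayed at 0 in p53KO cells, as did both nutlin counts and the 5 comparisons of the lines. The WT count at 1 nM was 0 with median scaling, with no scaling and with slide as a random block, and 1 without the first untreated arrays. At 10 nM the count in p53KO cells was 31 with no scaling and 7 with slide as a random block, and in WT cells 11 with median scaling or slide as a random block and 6 with no scaling. After nutlin, slide as a fixed block gave 27 calls in p53KO and 28 in WT cells, and as a random block 13 in p53KO and 14 in WT cells. On the slide that held both, the only untreated array of each line was the first one. MRPL49 was the member with the lowest unadjusted p after nutlin in WT cells, and 1 call was made there with no background correction, the authors' processed table, probes detected on all arrays, no detection filter, the replicate block or trended and robust variances. Without the 4 arrays 1 member was called at 1 nM in p53KO cells (also with the replicate block) and 1, MRPL54, in p53KO relative to WT untreated cells (also with the block), where slide as a fixed block gave 1, MRPS11. MRPL39 was the 1 call for a difference between the lines, at 10 nM, without the 4 arrays and with the replicate block, with -0.65. The replicate block alone changed no other call of a named member or of a difference between the lines. Treated and untreated arrays of one number did not deviate together throughout (correlations of -0.168 to 0.191).

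Of the 45 members called in p53KO and the 43 called in WT cells at 100 nM, 9 and 10 turned sign with no scaling and 2 (MRPS18B and MRPS25) and 1 (MRPS18B) with median scaling; with no scaling MRPS25 was called lower in both lines, at -0.55 in p53KO and -0.49 in WT cells, and MRPS18B in WT cells. Among the members named by rule in each comparison, MRPS18B turned with median scaling and 11 members with no scaling. At 100 nM relative to untreated cells MRPS18B read -0.051 in p53KO and -0.089 in WT cells with median scaling and -0.47 and -0.61 with no scaling. With no scaling p53KO values were -0.032 for MRPL28, -0.087 for MRPL4, -0.76 for MRPL58 and -0.012 for MRPS12, and WT values were -0.036 for MRPL4, -0.12 for MRPL10, -0.17 for MRPL30, -0.70 for MRPL58 and -0.21 for MRPS12. At 10 nM MRPL22 read 0.047 in p53KO cells. Relative to 10 nM, MRPS18B read -0.33 in p53KO and -0.05 in WT cells with median scaling, and -0.96 and -0.65 with no scaling. With no scaling p53KO values there were -0.19 for MRPL10, -0.24 for MRPL28, -0.38 for MRPL57, -0.42 for MRPS14, -0.64 for MRPL41 and -0.81 for MRPS12, and WT values were -0.17 for MRPL10, -0.23 for MRPS14, -0.26 for MRPL4 and -0.46 for MRPL28. The causes were not tested.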
